A study of Mus musculus with 15 samples.

Results

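In vitro matured metaphase II (MII) oocytes of day 20 (d20) females were compared with those of adult females, 3 arrays against 2, which together are 5 of the 15 arrays of the series. The arrays were chosen by the age and the maturation given in their titles. All animals were B6D2F1 hybrid females primed with PMSG, a gonadotropin that stimulates follicle growth, and their oocytes were taken 48 h later at the germinal vesicle (GV) stage, when the nucleus is intact, and cultured for 16 h. The prepubertal group was 20 days old and the adult group 7 to 8 weeks old. Every array carried amplified poly(A) RNA of a pool of 150 oocytes freed of cumulus cells. The other 10 arrays held in vitro matured MII oocytes of d26 (peripubertal) females (n = 3), in vivo matured MII oocytes of d26 (n = 2) and adult (n = 3) females, and adult GV oocytes (n = 2). In vivo matured oocytes at d20 were not analysed here, so age was compared at d20 only after maturation in culture.

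An oocyte stores messenger RNA while it grows, and transcription stops before it resumes meiosis. During maturation, stored transcripts are activated, silenced or destroyed, mainly by lengthening or shortening of their poly(A) tails, and what remains at MII serves the fertilised egg until the embryonic genome takes over. Oocytes of prepubertal females can often complete meiosis in culture but yield embryos that develop less far than those of adults. The RNA was selected by its poly(A) tail, so each level given here is that of polyadenylated transcript. In pooled cells, fewer cells of a type and less RNA per cell cannot be told apart.

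The d20 arrays were brighter than the adult in vitro matured arrays, which touches every value that follows. A deposited intensity of 200 was exceeded by 6299 to 6647 probe sets on the d20 arrays, by 4882 on adult in vitro replicate 1 and by 2753 on adult in vitro replicate 2. Adult in vitro replicate 2 was 1 of 4 dim arrays, with adult in vivo replicate 1 and d26 in vitro replicates 2 and 3, all at or below 3042. The control probe set at the 3' end of Gapdh, as deposited, read 1020, 413 and 983 at d20 and 81.8 and 21.6 in the adult, and its ratio to the 5' one was 12.9 to 26.6 at d20, 20.6 on adult in vitro replicate 1 and 2.27 on replicate 2. The part of RNA quality in the results was not tested. Levels are therefore given as log2 intensity after quantile normalization over all 15 arrays, which gives each array the same distribution of values. Across probe sets the normalized d20 arrays correlated with each other at 0.913 to 0.931, the adult pair at 0.837, and d20 with adult arrays at 0.784 to 0.899. Of 23 oocyte markers, 22 lay above the filter level of 3.07 on all 5 arrays, the exception being Figla at 0.51 on adult in vitro replicate 1. Their summed level was 16.08 to 16.27 at d20 and 15.61 to 16.08 in the adult.

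Markers of other cells were read on the same arrays. Of 24 cumulus and granulosa cell markers, 8 lay above the filter level on all 5 arrays and 2 on none, and their summed level was 9.61 to 9.91 at d20 and 9.79 to 10.2 in the adult. Foxl2, a transcription factor of granulosa cells and the one member of that list at an unadjusted p below 0.05, was 5.08, 3.75 and 4.73 at d20 and 6.31 and 5.55 in the adult (difference -1.41, limma adjusted p = 0.356). The count above the filter level on all 5 arrays was 3 of 12 for theca and stroma, with a summed level of 7.09 to 7.55 at d20 and 7.35 to 7.49 in the adult. It was 2 of 17 for leukocytes and blood, with 7.56 to 8.09 and 7.38 to 7.79, and 4 of 11 for oviduct epithelium, with 7.2 to 7.6 and 7.57 to 7.95. The ranges of the groups overlapped for all 4 of these lists, and the part of other cells in the results was not tested. No marker of any list had an adjusted p below 0.05 in limma, and at an unadjusted p below 0.05 there were 6 oocyte markers higher and 1 lower, 1 cumulus and granulosa marker lower and 2 theca and stroma markers lower at d20.

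Few transcripts passed the test between prepubertal and adult oocytes matured in culture. Map3k21, a mixed-lineage kinase at the head of MAP kinase cascades, fell by 3.41 on the log2 scale at d20 (SE 0.36, n = 3 and 2). Nat10, an RNA acetyltransferase, Wdtc1, a substrate adaptor of a cullin ubiquitin ligase, and Prkcsh, the beta subunit of the glucosidase that trims new glycoproteins in the endoplasmic reticulum, were higher at d20 by 3.14 to 4.91. A probe set with no gene name in the annotation used here, 1442383_at, was higher by 5.43. For Wdtc1, Prkcsh and 1442383_at both adult levels lay below the filter level of 3.07, so the sizes of these differences rest on signal near the floor. These 5 of 22519 tested probe sets passed a Benjamini-Hochberg adjusted p of 0.05 in limma, which is 0.0222%, with 4 higher (0.0178%) and 1 lower (0.00444%) at d20. As genes they were 3 higher (0.0249%) and 1 lower (0.00831%) of 12028. The labels do not say that pools came from separate animals, so p-values measure the spread between these arrays, which may be technical.

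**Figure D1:**
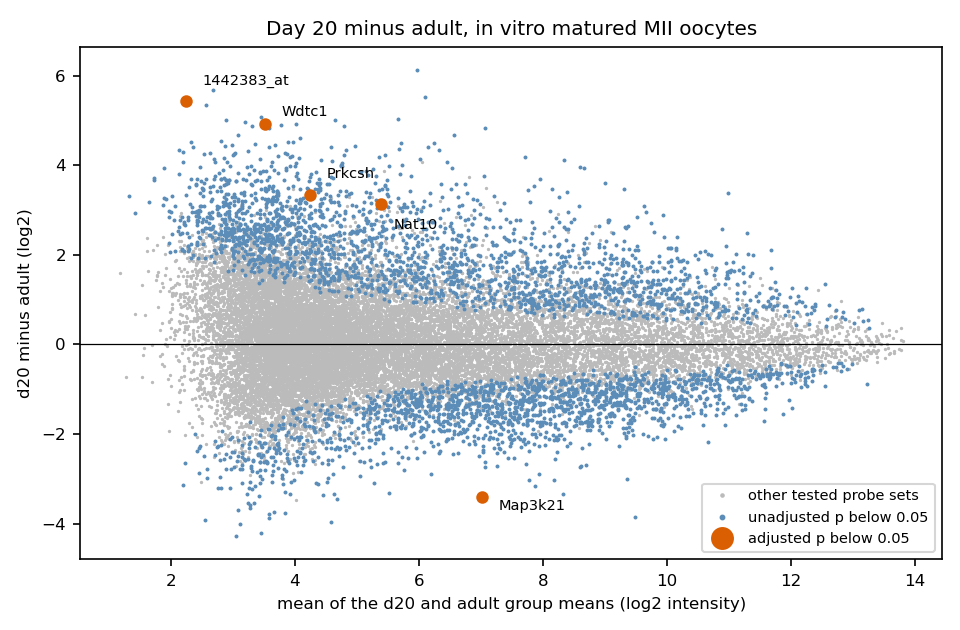
Each point is a tested probe set, with the mean of the d20 and adult group means on the horizontal axis (log2 intensity) and d20 minus adult on the vertical axis (log2), orange for an adjusted p below 0.05 and blue for an unadjusted p below 0.05. The 4 called higher lie from 3.14 to 5.43 and Map3k21 lies at -3.41, while other probe sets with differences as large, mostly of low level, did not pass.

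Many more probe sets lay apart without passing the adjustment. At an unadjusted p below 0.05 there were 2242 higher (9.96%) and 1729 lower (7.68%) at d20, and the 3 d20 arrays did not overlap the adult pair in 9339 (41.5%). At an adjusted p below 0.1 there were 22 in each direction (0.0977% each). The unadjusted share depended on the level. It was 5.58% higher and 2.5% lower among the 5630 tested probe sets of lowest mean level, up to 3.84, and 13.5% higher and 15.7% lower among the 5630 of highest mean level, from 7.38.

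Part of this spread moved with brightness. Within the adult in vivo and the d26 in vitro groups, the brighter arrays were set against the dim ones, and the sign was compared with that of d20 minus adult. The sign matched in both groups for 49.2% of all tested probe sets, for 70.4% of those higher and 73.5% of those lower at an unadjusted p below 0.05, and for 3 of the 5 that passed the adjustment. The part of brightness in the differences between the ages was not tested beyond these values. With both ages fitted without the 4 dim arrays, which leaves 1 adult in vitro array assumed to vary like the other groups, 342 probe sets passed, 306 higher and 36 lower at d20. Under that setting and under every other one tried, the 5 kept their direction wherever they were tested.

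The Map3k21 level was ordered by age. It was 4.91, 5.59 and 5.42 on the d20 arrays and 8.97 and 8.46 on the adult ones (adjusted p = 0.00213 in limma), 10.6-fold lower at d20. All 3 d20 arrays lay below all 12 other arrays of the series. The d26 in vitro matured arrays read 7.67, 6.95 and 7.43, between the d20 and the adult arrays with no overlap on either side. The in vivo matured arrays lie outside the 5 compared but share their normalization, filter and estimate of spread. On them Map3k21 was 6.65 and 6.77 at d26 and 8.67, 9.11 and 8.82 in the adult. The groups again did not overlap, and the difference of -2.16 (SE 0.36) had a limma adjusted p of 0.39, in a comparison in which 0 of 22519 probe sets passed and 836 had an unadjusted p below 0.05. In the adult, Map3k21 rose from 6.61 and 6.75 in GV oocytes to the in vivo MII level, by 2.19 (SE 0.36, limma adjusted p = 0.000431). The d20 levels after maturation lay below both adult GV arrays, a difference that was not tested. For Map3k21, brighter arrays read 0.30 and 0.48 above dim ones in the adult in vivo and d26 in vitro groups. The part of brightness in the Map3k21 difference was not tested.

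A further Map3k21 probe set, 1425807_at, averaged 1.64 at d20 and 5.51 in the adult, a difference of -3.88 (limma adjusted p = 0.194), in the same direction but not past the adjustment. The call on the main probe set was kept in 23 of the 28 other settings. It was lost with values as deposited, with median scaling, with quantile normalization of the compared arrays alone, and with fits to the compared or to the in vitro matured arrays alone, and the difference ran from -3.66 to -2.01.

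**Figure D2:**
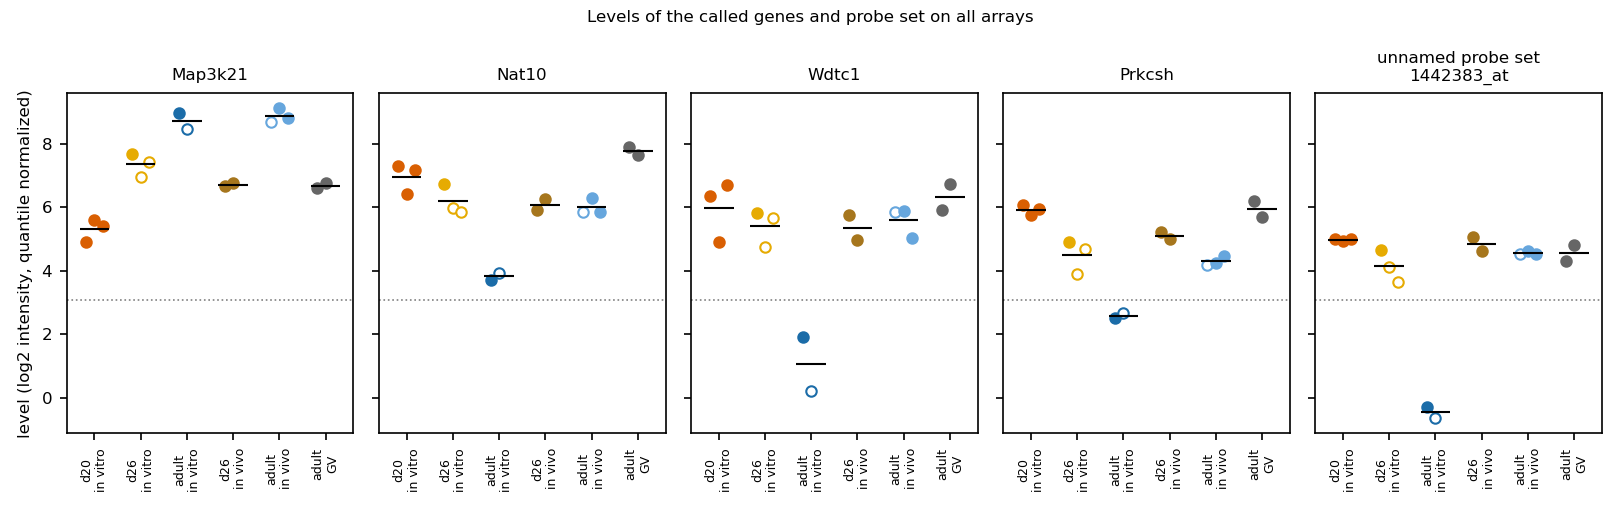
Levels (log2 intensity, quantile normalized) of the 4 called genes and the unnamed probe set on all 15 arrays by group, with a bar at each group mean, open circles for the 4 dim arrays and a dotted line at the filter level of 3.07. Map3k21 is lowest on the d20 arrays, while in the other panels the adult in vitro pair is lowest.

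The probe sets called higher showed another arrangement. Nat10, whose product acetylates cytidines in ribosomal, transfer and messenger RNA, was 7.31, 6.41 and 7.16 at d20 and 3.71 and 3.92 in the adult, a difference of 3.14 (SE 0.43, limma adjusted p = 0.0189). It was 6.74, 5.97 and 5.83 in d26 in vitro, 5.90 and 6.25 in d26 in vivo, 5.83, 6.30 and 5.85 in adult in vivo matured oocytes, and 7.90 and 7.64 in GV oocytes. The d20 arrays thus lay among or just above the other MII groups, and the adult in vitro pair lay below all 13 other arrays.

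Wdtc1 was 6.34, 4.90 and 6.70 at d20 and 1.92 and 0.20 in the adult, a difference of 4.91 (SE 0.68, limma adjusted p = 0.0189). The groups did not overlap. Adult in vivo matured oocytes had 5.83, 5.89 and 5.04, within the range of the d20 arrays. Prkcsh was 6.06, 5.76 and 5.94 at d20 and 2.5 and 2.67 in the adult, a difference of 3.34 (SE 0.49, limma adjusted p = 0.0328). The d26 in vitro matured oocytes stood between them without overlap, at 4.90, 3.89 and 4.69, and Prkcsh in vivo averaged 5.10 at d26 and 4.29 in the adult (difference 0.81, SE 0.49, limma adjusted p = 1). The unnamed probe set 1442383_at was 4.99, 4.92 and 4.98 at d20 and -0.31 and -0.64 in the adult (difference 5.43, SE 0.59, limma adjusted p = 0.00213), against 3.64 to 5.06 on the other 10 arrays.

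In all 4 the adult in vitro pair was below the 13 other arrays, which held for 1.11% of all tested probe sets and for 9.32% of those higher at an unadjusted p below 0.05. The adult in vitro arrays are also the control side of this comparison. Replicate 1 of them was not among the dim arrays, but had 4882 probe sets over 200 against 6299 to 6647 on the d20 arrays. The part of brightness was not tested. Nat10 and Wdtc1 each kept the call in 18 of 28 other settings, Prkcsh in 11 of 28 and 1442383_at in 23 of 26. The calls of Nat10 and Wdtc1 ended, with limma adjusted p of 0.056 to 0.189, when d20 replicate 1 or 3, either GV array or adult in vitro replicate 2 was left out. That of Prkcsh ended, at 0.0574 to 0.272, without any 1 of the 3 d20 arrays, the GV arrays, the d26 in vivo arrays, adult in vivo replicates 2 and 3 or adult in vitro replicate 2. The 3 calls were also lost with values as deposited, with quantile normalization of the compared or the MII arrays alone, and with fits to the compared or the in vitro matured arrays alone. Prkcsh also lost its call with no filter (limma adjusted p = 0.121) and with a block on the title number (0.0919).

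To fill each direction to 10 genes, those with the smallest unadjusted p were added, with a difference of at least 1 and no overlap between groups. None of these passed, with limma adjusted p from 0.0652 to 0.0906. On the higher side they were Gigyf2, a translational repressor that binds the cap-binding complex, Mto1, which modifies mitochondrial transfer RNA, Wdr62, a spindle pole protein, Ppfibp2, a liprin, Btrc, an F-box protein that selects substrates for ubiquitination, Vps35l, a subunit of the retriever endosomal complex, and the predicted gene Gm19600.

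Gigyf2 was 5.93, 5.59 and 5.97 at d20 and 2.21 and 1.54 in the adult (difference 3.95, SE 0.65). Its GV level averaged 8.29, so both maturing groups lay below it, the adult pair further. Mto1 was 5.19, 5.26 and 5.62 at d20 and 2.32 and 0.70 in the adult (difference 3.85, SE 0.64), with a GV mean of 8.19. Btrc, at 6.61, 6.42 and 7.16 against 4.83 and 3.41 (difference 2.61, SE 0.48), was the only one of the 7 whose adult pair lay wholly above the filter level. Its d26 in vitro levels of 5.75, 5.78 and 6.11 lay between those of the 2 ages. The other tested Btrc probe sets read 2.81, 1.57 and -0.26. Those of Vps35l read 1.70 and -0.11, and that of Gigyf2 read 0.50. With Nat10, Wdtc1 and Prkcsh included, the adult in vitro pair lay below all 13 other arrays in 9 of these 10 genes. Levels descended without overlap from d20 over d26 to adult in 2, Prkcsh and Btrc. The shares were 1.11% and 0.364% of all tested probe sets, and 9.32% and 3.12% of those higher at an unadjusted p below 0.05. Both counts are partly fixed by the choice of genes with a gap between the groups.

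The lower side held Papola, Hspa1b, Gpd2, Shh, Cth, Nfkbia, Plscr1, Frmd4a and Fam221a beside Map3k21. Papola encodes the canonical nuclear poly(A) polymerase. It was 9.13, 9.83 and 8.81 at d20 and 11.09 and 11.07 in the adult (difference -1.82, SE 0.32, limma adjusted p = 0.0906). The d26 in vitro arrays, at 9.83, 10.67 and 9.82, reached into the d20 range. All 5 tested Papola probe sets were lower at d20, by differences from -1.82 to -0.51. Adult and d26 in vivo matured oocytes averaged 11.09 and 11.

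Nfkbia, the inhibitor that holds NF-kappaB in the cytoplasm, was 10.18, 10.42 and 10.07 at d20 and 11.60 and 11.69 in the adult (difference -1.43, SE 0.27, limma adjusted p = 0.0906). Its 5 tested probe sets were likewise all lower at d20, from -2.06 to -1.17. The d26 in vitro levels of 10.98, 10.92 and 10.52 stood between those of the other ages without overlap. Cth, which makes cysteine from cystathionine, was 7.37, 8.29 and 7.24 against 9.58 and 10.15 (difference -2.23, SE 0.41), and Gpd2, the mitochondrial glycerol phosphate dehydrogenase, 6.85, 7.32 and 7.02 against 8.61 and 9.04 (difference -1.76, SE 0.32). For Gpd2 the other 2 tested probe sets read 0.35 and 0.49, the opposite sign.

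Shh, a secreted morphogen, was 7.09, 7.17 and 6.86 at d20 and 8.74 and 8.98 in the adult (difference -1.82, SE 0.33, limma adjusted p = 0.0906). The d26 in vitro arrays, at 7.77, 8.54 and 8.06, lay between. Hspa1b, an inducible heat shock protein, was 3.31, 2.44 and 3.37 against 5.83 and 6.23 (difference -2.99, SE 0.53), but its other tested probe sets read 0.76 and -0.76, and its near-identical neighbour Hspa1a makes its signal uncertain. Plscr1, a phospholipid scramblase, was 2.18, 0.72 and 0.46 against 5.21 and 5.02 (difference -4.0, SE 0.74), while a further tested probe set read -0.13.

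**Figure D3:**
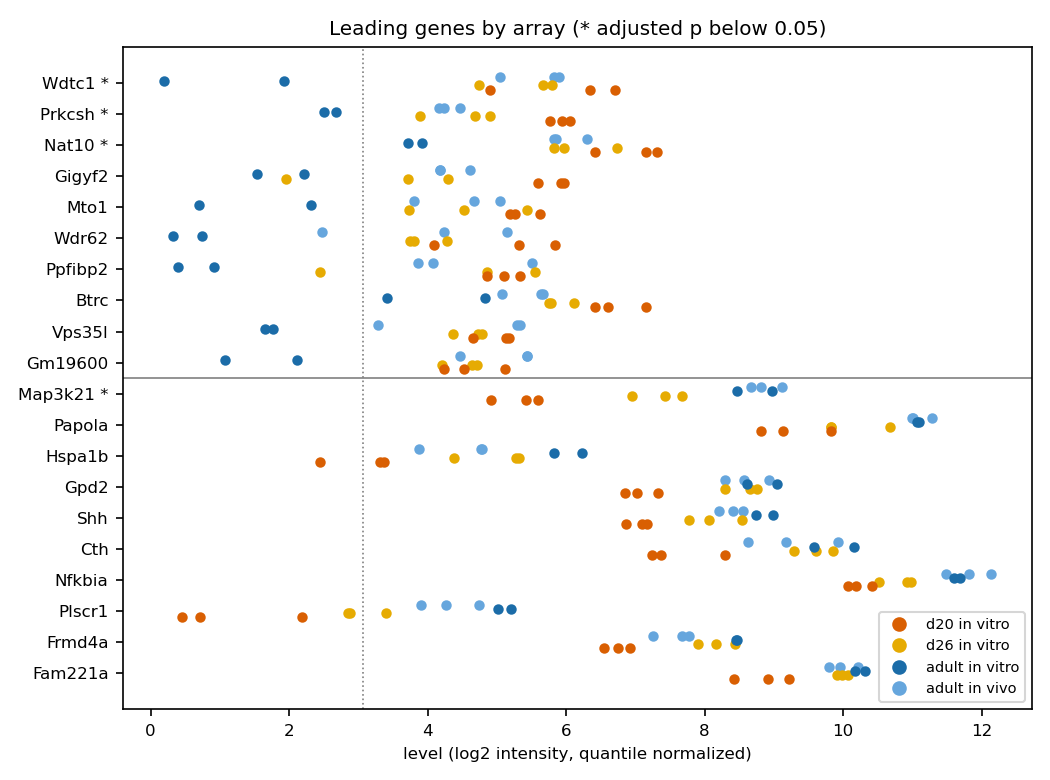
Level of each leading gene (log2 intensity, quantile normalized) on each array of 4 MII groups, higher genes above the grey line and lower ones under it, stars for an adjusted p below 0.05 and a dotted line at the filter level of 3.07. For the higher genes the adult in vitro points stand apart at the left, and for most lower genes the d20 points do.

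The d26 arrays show how the leading genes were arranged between the outer ages. Levels ascended without overlap from d20 over d26 to adult in vitro matured oocytes in 7 of the 10 lower genes, against 0.675% of all tested probe sets and 7.58% of those lower at an unadjusted p below 0.05. In 4 of them, Map3k21, Hspa1b, Nfkbia and Plscr1 (its d20 levels below the filter level), the 3 d20 arrays lay below all 12 others. That held for 0.497% of all tested probe sets and 5.26% of those lower at an unadjusted p below 0.05. The genes were chosen for small p and a gap of at least 1 between d20 and adult levels without overlap. Such a gap leaves more room for the d26 arrays to lie between, so the ascending count is partly fixed by that choice. The count of lowest d20 arrays is partly fixed by it too. The probe sets behind the shares were not held to such a gap. The difference between the higher and the lower genes was not tested.

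The d26 and adult in vivo matured arrays give an age comparison that shares no array with this one, though it shares the normalization and fit. In that in vivo comparison, 8 of the 10 higher and 8 of the 10 lower genes had the sign of d20 minus adult. The sign was shared by 60.8% of all tested probe sets, 74.4% of those higher and 74.1% of those lower at an unadjusted p below 0.05. Apart from Map3k21 the differences in vivo were small, with Shh at -0.63 (SE 0.33), Nfkbia at -0.51 (SE 0.27), Btrc at 0.88 (SE 0.48) and Ppfibp2 at 1.09 (SE 0.80), none past the adjustment. Wdtc1 (-0.25, SE 0.68) and Gm19600 (-0.39, SE 0.56) had the opposite sign from that in culture.

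**Figure D4:**
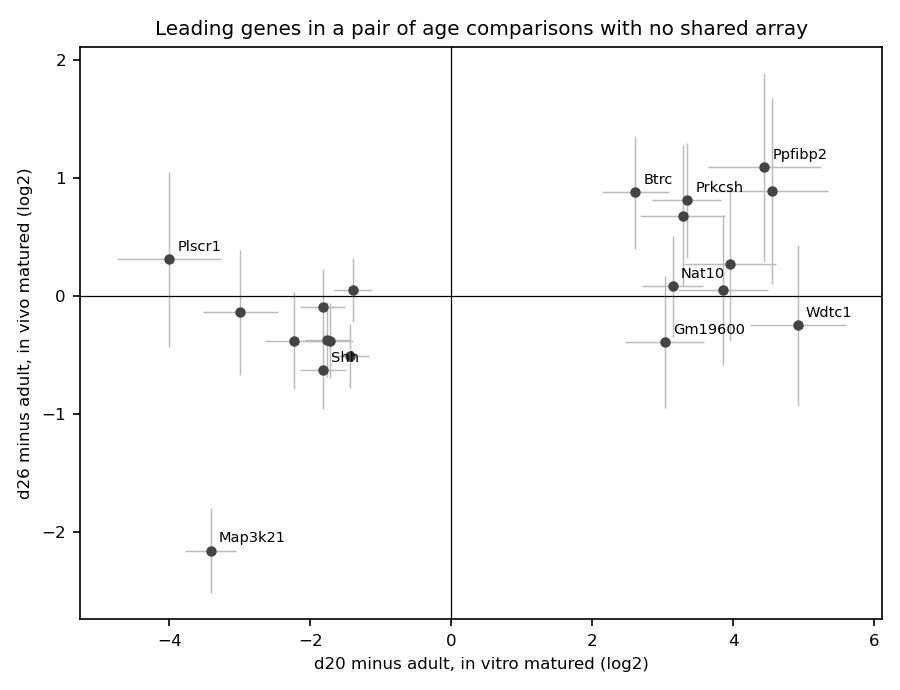
Difference between d20 and adult after maturation in vitro (horizontal, log2) and between d26 and adult after maturation in vivo (vertical, log2) for the 20 leading genes, with bars of 1 SE. Map3k21, at -3.41 and -2.16, stands apart, and the other genes lie between -0.63 and 1.09 on the vertical axis.

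Adult GV and in vivo matured arrays, also outside the 5 compared, show how the same transcripts behave when adult oocytes mature. Both comparisons take the spread of a probe set from the same fit, so a small spread favours passing in both. Of 22519 probe sets, 3542 (15.7%) rose and 2495 (11.1%) fell from GV to MII at an adjusted p below 0.05 in limma. Of the 4 called higher at d20, 2 fell during adult maturation, Nat10 by 1.78 (SE 0.43, adjusted p = 0.00632) and Prkcsh by 1.65 (SE 0.49, adjusted p = 0.0217), and 0 rose. Of the 22 lower at d20 at an adjusted p below 0.1, 15 (68.2%) rose during adult maturation, which is 0.423% of the 3542, and 2 fell. Of the 22 higher at d20, 6 (27.3%) fell, which is 0.240% of the 2495, and 0 rose. Gpd2, Shh, Cth and Frmd4a rose by 2.24, 2.38, 2.54 and 1.47 in adult maturation (adjusted p at most 0.00347), and at d20 they lay nearer to the GV level than the adult in vitro pair did. Shh, for instance, averaged 6.01 at GV, 7.04 at d20 and 8.86 in the adult after culture. The genes were chosen as lower at d20 than in the adult, and for rising genes that choice partly fixes this order.

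Known oocyte genes are given next, since they are the reference for any age difference. The growth factor Gdf9 was 13.52, 13.45 and 13.46 at d20 and 13.37 and 12.07 in the adult, and its partner Bmp15 11.46, 12.02 and 11.24 against 12 and 11.36. Neither passed, with limma adjusted p of 0.278 and 0.915. Zp3, a zona pellucida glycoprotein, differed by 0.46 (SE 0.35), Nlrp5, of the subcortical maternal complex, by -0.08 (SE 0.28), and Dppa3, which protects the maternal genome from demethylation after fertilisation, by -0.46 (SE 0.40). Mos, the kinase that holds the egg at MII, was 11.83, 9.20 and 11.37 at d20 and 7.84 and 6.55 in the adult (difference 3.61, SE 1.62, limma adjusted p = 0.268). Mos also followed brightness, with brighter arrays above dim ones by 5.15 in adult in vivo and 4.42 in d26 in vitro matured oocytes, and the part of brightness in its difference was not tested.

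None of the 40 gene lists held a gene that passed the adjustment in limma, so the lists are described by their members at an unadjusted p below 0.05, which were 1225 higher (10.2%) and 1082 lower (9.00%) of all 12028 genes, and by the median difference relative to that of all genes. That median over all genes was 0.05 after quantile normalization, 1.31 as deposited and 0.46 after median scaling. Together the lists held 1221 tested genes, and 21 lists had more members higher than lower, 13 more lower and 6 equal numbers. The sign of the relative median was the same in all 28 other settings for 19 of the 40.

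Maternal effect genes, whose products the egg needs after fertilisation, had more members higher than lower at d20. Of 26 tested, 9 were higher (34.6%) and 1 lower (3.85%), with a relative median of 0.40. Tle6, of the subcortical maternal complex, was 10.70, 9.12 and 9.87 at d20 and 8.71 and 7.72 in the adult (limma adjusted p = 0.199), and Uchl1, a deubiquitinase, 9.48, 8.86 and 9.32 against 7.87 and 8.21 (limma adjusted p = 0.179). On dim d26 in vitro arrays Tle6 was 8.47 and 9.18 against 9.60 on the brighter one, and Uchl1 8.09 and 9.06 against 8.77. On the dim adult in vivo array Tle6 was 8.48 against 10.20 and 9.38, and Uchl1 7.73 against 8.35 and 8.58. The part of brightness was not tested. The lower member was Ooep, which belongs to the same complex as Tle6, at 8.87, 8.63 and 8.80 against 9.80 and 9.75 (difference -1.0, SE 0.24, limma adjusted p = 0.118). Members of that complex thus stood on either side without passing.

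The same held for spindle and proteasome lists. Of 28 spindle pole, microtubule and kinesin genes, 8 were higher (28.6%) and 1 lower (3.57%), with a relative median of 0.37. Ckap5, a microtubule polymerase, was 8.63, 7.67 and 8.62 at d20 and 6.90 and 5.25 in the adult, and the lower member, the transport kinesin Kif5b, 7.94, 8.03 and 7.48 against 8.79 and 9.31. Of 19 spindle checkpoint genes, 5 were higher (26.3%) and 0 lower, led by Bub3 at 10.53, 10.52 and 10.75 against 10.07 and 9.62. Of 41 proteasome genes, 8 were higher (19.5%) and 1 lower (2.44%), with a relative median of 0.36. The regulatory subunit Psmd2 was 10.43, 9.80 and 9.84 against 8.57 and 7.40, and Psmd8 5.42, 5.24 and 5.07 against 2.4 and 1.2. Psmd8 was low on both dim d26 in vitro arrays as well, at 2.29 and 1.93 against 5.14 on the brighter d26 array, and Psmd2 on one of them, at 7.62 and 8.93 against 9.44. The part of brightness was not tested.

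Regulators of meiotic arrest and of the cell cycle divided. Of 19 genes of meiotic arrest and cAMP control, 5 were higher (26.3%) and 2 lower (10.5%), with a relative median of 0.63. Pde3a, the phosphodiesterase that lowers cAMP so that meiosis resumes, was 5.82, 4.99 and 4.77 against 3.72 and 3.47, and the phosphatase Cdc25a 9.37, 7.93 and 9.48 against 7.68 and 6.93. Wee2, the oocyte kinase that opposes them, was 11.96, 12.07 and 12.20 against 12.69 and 13.34 (difference -0.93, SE 0.27, limma adjusted p = 0.172). Of 27 genes of the CDK1, cyclin and anaphase-promoting complex list, 3 were higher (11.1%) and 7 lower (25.9%), with a relative median of -0.07. The lower ones included both E-type cyclins, Ccne1 at 7.46, 8.02 and 7.91 against 9.03 and 8.76 and Ccne2 at 5.03, 5.84 and 5.39 against 6.56 and 8.50, and the replication inhibitor Gmnn at 11.93, 12.08 and 12.03 against 12.69 and 12.70. None of these 6 genes overlapped between the ages, which held for 41.5% of all tested probe sets, and they were chosen by small p. None passed, the smallest adjusted p being 0.15 for Ccne1 in limma.

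Dormant maternal transcripts, which are stored with short tails and translated during maturation, had 5 of 19 higher (26.3%) and 2 lower (10.5%), with a relative median of 0.01 (-0.34 after median scaling). Of 47 genes of mRNA decay and poly(A) tail control, 8 were higher (17.0%) and 3 lower (6.38%), with a relative median of -0.02. Beside the lower Papola, the deadenylase Parn was 8.20, 8.35 and 8.46 at d20 and 7.57 and 5.41 in the adult, and the exonuclease Xrn2 9.24, 7.70 and 9.40 against 6.85 and 6.13. None of these 3 passed the adjustment, and they were picked from the list by small p. Parn was lower on dim arrays, at 6.68 against 7.80 and 7.91 in adult in vivo matured oocytes. In d26 in vitro matured oocytes it was 6.99 and 7.17 against 7.61. For Papola, brighter minus dim arrays gave -0.28 and -0.42 in the same groups. The part of brightness was not tested. In RNA-binding translational control, 2 of 34 were higher (5.88%) and 5 lower (14.7%), among the latter Fxr1 and Fmr1 at -1.52 and -1.68.

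The lists of cytosolic ribosomal proteins, respiratory complex I and mitochondrial import had relative medians below 0. Cytosolic ribosomal proteins had a relative median of -0.48 (-0.30 after median scaling), with 5 of 47 higher (10.6%) and 6 lower (12.8%). Rpl13a was 9.38, 9.25 and 9.16 at d20 and 10.05 and 10.40 in the adult, and Rps2 10.48, 8.50 and 11.11 against 7.85 and 7.73, so single members went both ways. Respiratory complex I had 2 of 35 higher (5.71%) and 4 lower (11.4%) and a relative median of -0.30. In mitochondrial import, dynamics and biogenesis 3 of 40 were higher (7.50%) and 7 lower (17.5%). Tfam, which packages and transcribes mitochondrial DNA, was among the lower at 1.77, 3.62 and 3.67 against 4.35 and 6.11, and Nrf1, a transcription factor for respiratory genes, among the higher at 7.37, 6.97 and 7.40 against 6.42 and 5.89. The relative median of that list was -0.18, and 0.03 after median scaling.

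**Figure D5:**
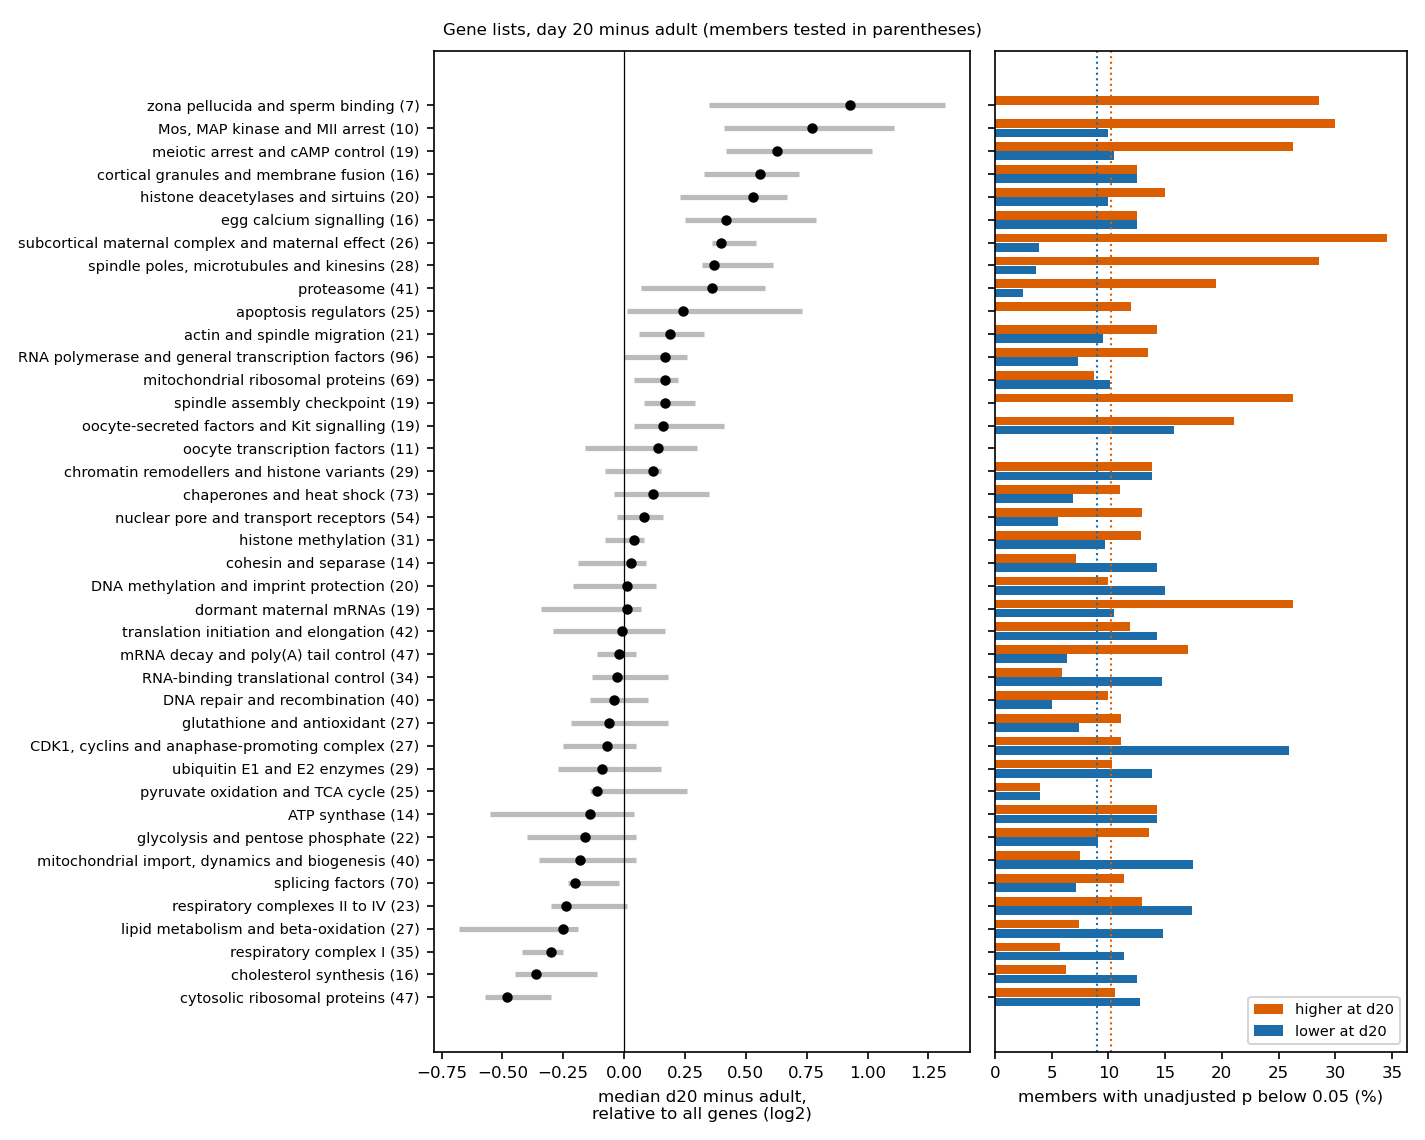
Left, the median d20 minus adult difference of each gene list relative to all genes (point, log2) with a grey bar from its lowest to its highest value over the settings tried. Right, the share of its tested members (number in parentheses) at an unadjusted p below 0.05 that were higher (orange) or lower (blue) at d20, with dotted lines at the shares over all genes, 10.2% and 9.00%.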

How the data were processed

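Intensities of 45101 probe sets on 15 one-colour arrays were deposited; the authors made them with MAS5, per the submitters' processing notes, with no version or scaling target stated there. The 64 control probe sets were left out. Log2 intensities were quantile normalized over the 15 arrays, and the 22519 probe sets in the upper 50% by mean were tested with limma 3.58.1 (R 4.3.3) in a model of 6 group means with an intensity trend and 9 residual degrees of freedom. Adjustment was by Benjamini-Hochberg over all of them. No detection calls were used. A gene is its tested probe set with the highest mean, and names follow the platform's annotation (1 symbol for 34945 probe sets, several for 932, none for 9160), 34741 of them updated through a gene table of GRCm38.p6. Replicate numbers follow record order.

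Genes named are those past an adjusted p of 0.05 with a difference of at least 1 and no overlap, filled to 10 a direction by unadjusted p, up to 4 members of each list by p, and reference genes. The arrays compared and all lists were chosen with earlier results of these data known. The number of arrays limits the precision.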

Additional observations from a re-analysis of the deposited data

How the results depend on the processing

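Against 5 calls, 0 probe sets passed in limma with values as deposited, with quantile normalization of the compared arrays alone, and with fits to the compared or the in vitro matured arrays alone, although 5304, 5101, 5113 and 3758 had an unadjusted p below 0.05. There were 2 with quantile normalization of the MII arrays alone, 18 without a variance trend and 12 with array weights. Median scaling gave 7 higher and 0 lower against 4 and 1. Omitting 1 array gave 2 to 763 calls. The 763 (680 higher, 83 lower) came without adult in vitro replicate 1, which leaves the dim array as the lone adult one, assumed to vary like the other groups. There were 85 without adult in vivo replicate 1, 36 without d26 in vitro replicate 2, 9 without d26 in vitro replicate 1, and 2 each without GV replicate 1 or 2 and d20 replicate 1 or 3. Leaving out the 4 dim arrays, a setting chosen after seeing the data, gave 342. The cause was not tested. No filter, the upper 30% of probe sets, a pseudocount of 3.04 and a block on the title number gave 4 to 6 calls, though Prkcsh was lost without the filter and with the block. Of the 20 leading genes and the unnamed probe set, Fam221a alone turned direction in a setting, to 0.11 with values as deposited. Other lower genes came near 0 there, with Frmd4a at -0.12, Gpd2 at -0.16, Shh at -0.22 and Nfkbia at -0.26. Map3k21 kept -2.01 and Plscr1, with d20 levels near the floor, -2.84, and the median over all genes was 1.31. No paired analysis was possible because the number in each title is unique to 1 array and its meaning is not given.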

Other observations

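Some probe sets, those of Map3k21, Shh, Prkcsh and Btrc among them, were arranged by age in both kinds of maturation. Levels ascended without overlap from d20 over d26 to adult after culture, and d26 lay below adult in vivo, in 48 of 22519 probe sets (0.213%), and the mirror image held in 11 (0.0488%). Picked from these after their values were seen, Shmt1, which passes carbon units from serine to folate, had a pair of such probe sets, with d20 minus adult at -1.95 and -1.79 and d26 minus adult in vivo at -1.04 and -0.83. Cebpd, a transcription factor, had -3.20 and -1.96. The deacetylase Sirt1, also a member of a list, had -1.3 and -0.64. Shmt1, Cebpd and Sirt1 did not pass the adjustment in limma.

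Regulators of apoptosis had 3 of 25 tested members higher at an unadjusted p below 0.05 (12%) and 0 lower. Over all genes the shares were 10.2% and 9.00%, so the higher share was near that of all genes. Mcl1, which protects cells from death, was 8.38, 8.53 and 8.47 at d20 and 7.51 and 6.21 in the adult. Bcl2l11, which promotes it, was 11.25, 9.84 and 11.71 against 9.57 and 8.81. In cohesin, the meiotic subunit Smc1b was 4.03, 4.69 and 4.61 at d20 and 0.06 and 0.89 in the adult (difference 3.97). Both adult levels lay below the filter level, so the size of this difference rests on signal near the floor. The general subunit Stag2 had a difference of -1.27. Neither passed the adjustment, and both were picked from their list by small p. Of the 14 tested members of that list, 1 was higher and 2 lower at an unadjusted p below 0.05, with a relative median of 0.03. The receptor Kit was 10.32, 9.85 and 10.30 against 9.0 and 8.71 (difference 1.3, SE 0.32, limma adjusted p = 0.132).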
